A study of Mus musculus with 4 samples.

Results

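Receptors for neuromodulators and neuropeptides were read in the dentate gyrus of handled control mice. They were chosen by name: every non-control probe set whose array annotation gives 1 gene symbol of a serotonin, dopamine, adrenergic, muscarinic, nicotinic, histamine, adenosine, NPY, somatostatin, opioid, CCK, tachykinin, galanin, neurotensin, P2 purinergic or metabotropic glutamate receptor. The rule took 66 of 12422 non-control probe sets, which stand for 57 genes, and it found none of the adenosine receptors. Of the metabotropic glutamate receptors it found Grm8 alone. The samples were 4 single-channel oligonucleotide arrays of total RNA from young male C57BL/6J mice that were handled by the experimenter and received nothing else. Their RNA was taken at 1, 2, 4 and 6 h after the last shock of experimental mice, a group not analysed here. With a single array per hour, no hour carries a replicate error, and a mean ± SD is taken over all 4 control arrays (n = 4). The number of animals behind an RNA is not in the labels, and any p-value measures only the scatter of these 4 samples, which may be technical.

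Most of these receptors are coupled to G proteins: a transmitter or peptide binds outside the cell, and the receptor activates a G protein that raises or lowers cyclic AMP, releases calcium from stores or opens potassium channels. The nicotinic, P2X and Htr3a receptors are instead channels that the transmitter opens directly. The dentate gyrus receives serotonin from the raphe, noradrenaline from the locus coeruleus and acetylcholine from the septum, while NPY, somatostatin and CCK come largely from its own interneurons. In a tissue sample, fewer cells of a type and less RNA per cell cannot be told apart.

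The values are intensities on a linear scale as deposited. Intensities under 16.4, the 10th percentile of non-control values, were set to that floor before log2 was taken. Tests were limited to probe sets with a mean log2 intensity of at least 6.66, the 40th percentile, called kept here. By that filter 33 of the 66 receptor probe sets (50%), of 30 genes, were kept, against 7453 of 12422 (60%) on the whole array. Intensity does not rank transcript levels between genes, so values are compared only within a probe set. In the 1 h array the ratio of the 3' to the 5' probe set of the control transcript Gapdh was 4.88, against 1.13 to 1.33 in the later arrays. The same ratio for the control transcript actin was 2.51 at 1 h, against 1.83 to 2.20 in the later arrays. The granule cell marker genes Calb1, Dsp, Neurod1 and Prox1 were kept, and their summed intensity, most of it from Calb1 and Dsp, ran from 3532 to 4072. Prox1, the transcription factor of granule cells, read 71.6, 278, 155 and 232, low in the 1 h array. The CA pyramidal marker genes Bok, Rgs14 and Wfs1 were kept as well. They summed to 6071, 5427, 5701 and 5135.5 at 1, 2, 4 and 6 h, most of it from Rgs14. The part of CA field cells in the receptor readings was not tested.

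The serotonin receptors formed the largest family, with 7 of 13 probe sets kept. Htr5a, an inhibitory G protein-coupled receptor of cortex and hippocampus, read 478, 436, 389 and 361 at 1, 2, 4 and 6 h, a mean of 416 ± 51.4 (SD, n = 4). Htr3a, the channel subunit found in interneurons, read 498, 379, 422 and 336. Htr1d, an inhibitory autoreceptor of serotonin terminals, read 275, 220, 178 and 309.7. In these 3 genes the highest array was less than 2-fold above the lowest.

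Htr1a, the inhibitory receptor that opens potassium channels in hippocampal neurons, read 212, 187, 109.9 and 51.0. Each array was lower than the one before it, and the lowest value was 4.15-fold under the highest. Htr7, which raises cyclic AMP, read 78.7, 269.7, 237 and 179, so that the 1 h array alone lay under the other 3. Htr4, another receptor that raises cyclic AMP, read 281, 239, 181 and 218 on its kept probe set. Htr5b, a relative of Htr5a that was named after its values were seen, read 222, 145, 228 and 206.5.

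The other serotonin receptors were dim. Htr1b, Htr1f, Htr2b, Htr2c and a pair of probe sets of Htr4 ranged from 2.4 to 128.5 and were not kept. Htr2c, known for its abundance in choroid plexus, read 5.2, 48.5, 2.4 and 7.5, under the floor in 3 of 4 arrays. The summed intensity of 5 choroid plexus marker genes in the same arrays was 2209, 3706, 5061 and 6872, most of it from Igf2 and Ttr. Single markers differed in order. Ttr read 225, 444, 1258 and 3009, and the brighter Igf2 probe set 1501, 2876, 3282 and 3269. Kl read 280, 109, 194.5 and 190, highest at 1 h. The part of choroid plexus in the Htr2c reading was not tested.

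Of the dopamine receptors, Drd2 and Drd4 were kept. Drd2, the inhibitory receptor best known from striatum, read 148, 156, 195 and 164.5, a mean of 166 ± 20.2 (SD, n = 4). Drd4, an inhibitory receptor of the same class, read 211, 298, 169 and 156, highest at 2 h and within a 2-fold range. Drd3 read 21.1 to 40.5 and was not kept. Striatal and thalamic marker genes summed to 3307, 3267, 3928 and 4138 at 1, 2, 4 and 6 h, and their part in the Drd2 reading was not tested.

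Among adrenergic receptors Adra2c, which inhibits noradrenaline release, read 367.5, 624, 459 and 498, lowest at 1 h. Adra1b, which signals through calcium, read 21.2 to 48.6 and was not kept. Both histamine receptors were kept. Hrh1, coupled to calcium release, read 95.1, 117, 130.2 and 125. Hrh2, coupled to cyclic AMP, was among the least steady receptors, at 273, 49.6, 245 and 96.7. Its 1 h and 4 h values were high and its 2 h and 6 h values low, with a 5.51-fold range.

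Acetylcholine acts on muscarinic receptors and nicotinic channels. Chrm1, the muscarinic receptor of principal neurons that activates phospholipase C, read 226, 805, 554 and 620.1. The 1 h array was again the low one, and the 3 later arrays lay above it by 1.29 to 1.83 on the log2 scale. Chrm4, an inhibitory muscarinic receptor, was not kept at 120.1, 46.6, 171 and 27.8.

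Chrna7, the subunit of the calcium-permeable nicotinic channel of hippocampal interneurons and mossy fibre terminals, read 328, 357, 218 and 49.1. Its 6 h value was the lowest and its 2 h value the highest, a 7.28-fold range, the widest of the 33 kept receptor probe sets. Chrna6, a nicotinic subunit known from dopamine neurons, read 123, 104, 79.4 and 127. Chrnb2, the partner subunit of most brain nicotinic channels, read 64.4, 60.7, 43.0 and 33.2, lower in each later array, and was not kept.

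The subunits of the muscle nicotinic receptor, Chrna1, Chrnb1, Chrnd, Chrne and Chrng, are on the array as well. Their 8 probe sets read 12.3 to 402, and 2 were kept. Chrnd read 173, 141, 187 and 28.8, low in the 6 h array only. Its mean log2 intensity of 6.74 lay just above the filter at 6.66. The kept probe set of Chrne, whose identifier ends in _r_at, read 104.5, 357, 123 and 402, high at 2 and 6 h.

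**Figure D1:**
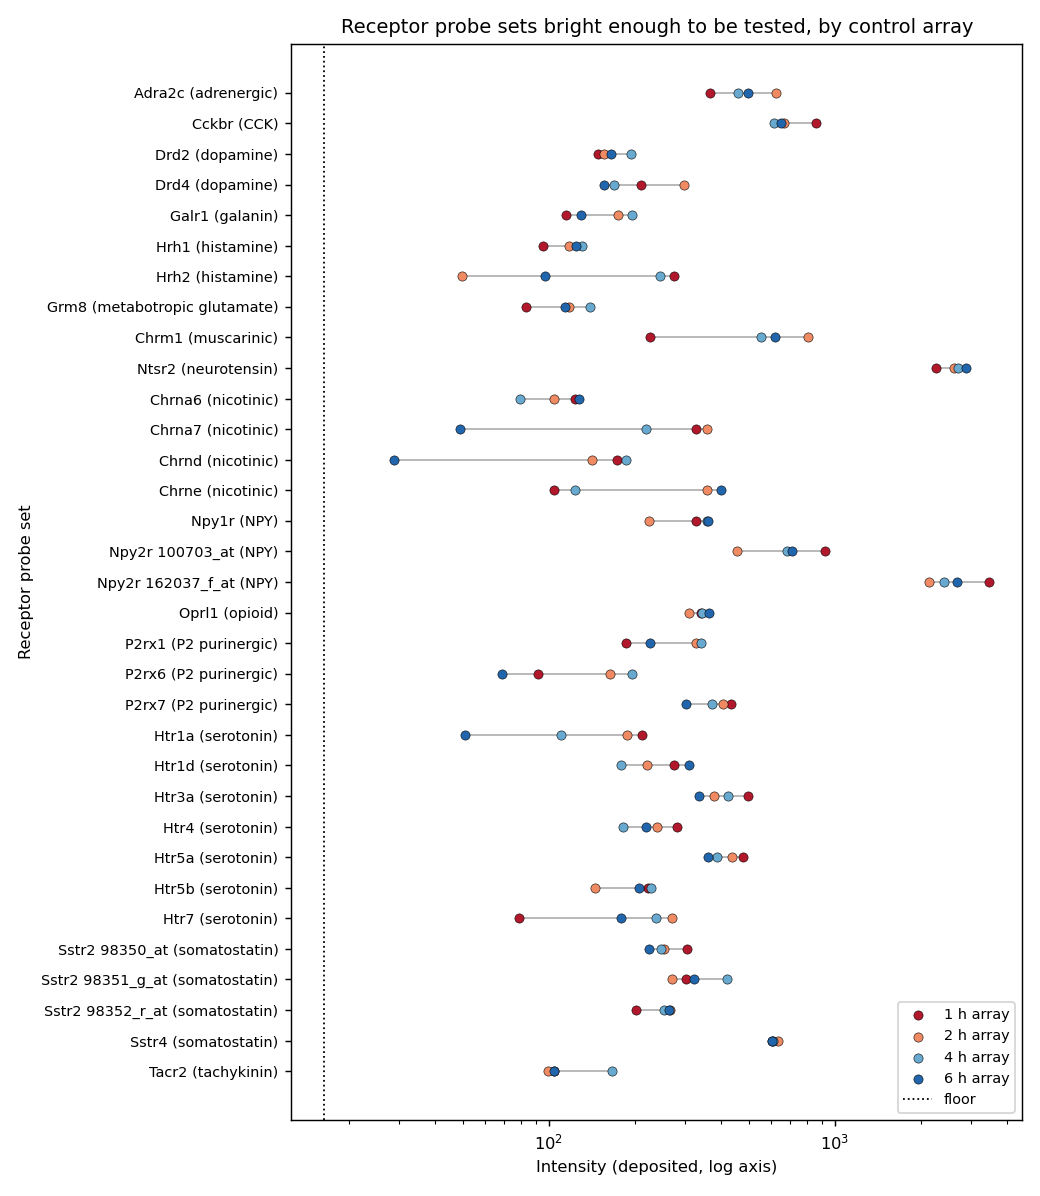
Deposited intensity (log axis) of the 33 receptor probe sets kept for tests, 1 point per control array, with a grey line from the lowest to the highest array and a dotted line at the floor of 16.4. Sstr4 shows 4 points on top of each other (602 to 635), while Chrna7, Chrnd, Hrh2 and Htr1a spread over at least 4-fold.

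Peptide receptors included some of the steadiest readings. Sstr4, the somatostatin receptor linked to potassium currents in hippocampus, read 602, 635, 610.1 and 605, a mean of 613 ± 14.9 (SD, n = 4), with the smallest spread of the kept receptors (an SD of 0.03 on the log2 scale). Oprl1, the nociceptin receptor, followed at 339.8, 308.5, 345 and 364 (SD 0.10 on the log2 scale). Its probe set ends in _s_at, which can share sequence with related transcripts. The median SD of the 33 kept receptor probe sets was 0.31 on the log2 scale, against 0.24 over all 7453.

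Sstr2, an inhibitory somatostatin receptor, was the only gene with 3 kept probe sets. They read 304, 254, 246 and 224, then 301, 270.3, 421.5 and 321, then 202, 266, 253 and 262. The probe sets did not share an order: the first was highest at 1 h, the second at 4 h, and the third was lowest at 1 h. The identifier of the second ends in _g_at and that of the third in _r_at. Sstr1, Sstr3 and Sstr5 read 14.0 to 125 and were not kept.

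Among NPY receptors, Npy2r, the presynaptic receptor on mossy fibre and Schaffer terminals, was bright on both of its probe sets. They read 924, 456, 682 and 711, and 3472, 2139, 2416 and 2684. On both the 1 h array was highest and the 2 h array lowest, though the second ends in _f_at and can share sequence with other genes. Npy1r, the receptor on granule cells, read 329, 224, 357 and 361 on its kept probe set and 77.8, 58.6, 47.2 and 21.4 on the other. Npy4r, Npy5r and Npy6r ranged from 13.6 to 113 and were not kept.

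Ntsr2, a neurotensin receptor known from astrocytes, read 2256, 2607, 2692 and 2882. It was the only kept receptor probe set with a higher value in each later array, but its whole range was 1.28-fold. Astrocyte marker genes summed to 22139, 24774, 24183 and 23630 at the same hours, but single markers differed in order. Aqp4 read 1751, 2312, 2601.5 and 2692 on its brighter probe set, lowest at 1 h. Gja1 read 6466, 5681, 5825 and 6214.5 on its brighter one, highest at 1 h. The part of astrocytes in the Ntsr2 values was not tested. Ntsr1, the neuronal neurotensin receptor, read 27.5 to 53.6 and was not kept.

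Cckbr, the CCK receptor of the brain, read 861, 666, 613 and 649, highest at 1 h, while Cckar, the receptor of the gut, read 30.6 to 116 and was not kept. Galr1, an inhibitory galanin receptor, read 115, 175, 195 and 129.5. Galr2 read 245 at 2 h and 56.9 to 63.4 in the other arrays, and it was not kept. Tacr2, a tachykinin receptor, read 104.5, 99.1, 166 and 104.3, and Tacr1, the substance P receptor, 18.6 to 53.2. The opioid receptors Oprd1, Oprk1 and Oprm1 read 10.3 to 103.9, and none of these 3 was kept.

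Nucleotides act on P2X channels and P2Y receptors. P2rx7, the ATP channel of microglia, read 432, 405.5, 371 and 302, lower in each later array and within a 1.43-fold range. Microglial marker genes summed to 8458, 9360, 9405 and 8779. Single markers differed in order: C1qa read 907, 1510.1, 1392.5 and 1223, lowest at 1 h, while Cd53 read 221, 153, 151 and 111, lower in each later array. The part of microglia in the P2rx7 values was not tested. P2rx1 read 187, 327, 339.6 and 225, and P2rx6 read 91.8, 163, 195.5 and 68.7. Both were higher at 2 and 4 h than at 1 and 6 h. P2rx4, P2ry1 and P2ry2 ranged from 5.2 to 87.1 and were not kept. Grm8, the presynaptic group III metabotropic glutamate receptor, read 83.2, 118, 139 and 114.

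A steady change over the hours was asked of every kept probe set, by regressing log2 intensity on the hour in limma. No receptor passed: 0 of 33 probe sets had an adjusted p under 0.05 in limma, and on the whole array 1 of 7453 did (0.0134%). That probe set was of Ttr, the choroid plexus transthyretin gene, at 225, 444, 1258 and 3009 (adjusted p = 0.023 in limma). The lowest adjusted p among receptors was 0.874 in limma. At an unadjusted p under 0.05 in limma there were 3, all with lower values later, Chrna7, Htr1a and Chrnd (9.09% of receptors, against 2.36% of all probe sets in that direction and 4.4% in either). Without the 6 h array this count was 0, with 3.09% of all probe sets. None had an unadjusted p under 0.05 upward, where all probe sets gave 2.04%. Slopes were positive in 17 of 33 receptors (51.5%) and in 46.5% of all probe sets. Values were lower in each later array for 4 receptors, Htr1a, Htr5a, P2rx7 and the first Sstr2 probe set (5.98% of all probe sets), and higher in each for Ntsr2 alone (4.44%).

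The slope of Chrna7 was -0.55 ± 0.12 (SE) log2 units per hour, and that of Htr1a -0.42 ± 0.11. When any 1 array was left out, the slope of Chrna7 stayed between -0.72 and -0.22 and that of Htr1a between -0.47 and -0.33. The sign for Htr1a could not turn, since its value was lower in each later array. Both genes were picked by their slopes in these same arrays, so the kept signs are no support for a trend. The slope of Chrnd, -0.45 ± 0.18, rested on its 6 h value of 28.8, for it was 0.060 without that array. Drd4 and P2rx7 followed with -0.14 and -0.10. The largest positive slopes were those of Chrne (0.22), Chrm1 (0.18), Htr7 (0.15), Grm8 (0.08) and Npy1r (0.08). Without the 1 h array the slopes of Chrm1, Htr7 and Grm8 were -0.094, -0.15 and -0.011, and without the 6 h array that of Chrne was -0.042. All 10 had adjusted p-values from 0.874 to 0.935 in limma. Over the same hours the 6 kept probe sets of endothelial marker genes all had negative slopes, with a median of -0.19 and 0 called. All 8 endothelial probe sets summed to 17477, 16577, 15119 and 15325. Most of that sum was a single probe set of Ly6e, ending in _f_at, at 15795, 15117, 13877 and 14390. Of those not kept, Cdh5 was highest at 6 h (139) and Tek lowest at 6 h (64.7). The part of endothelial cells, or of choroid plexus, in the receptor slopes was not tested. With 2 residual degrees of freedom, a slope that missed the threshold is not shown to be 0.

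**Figure D2:**
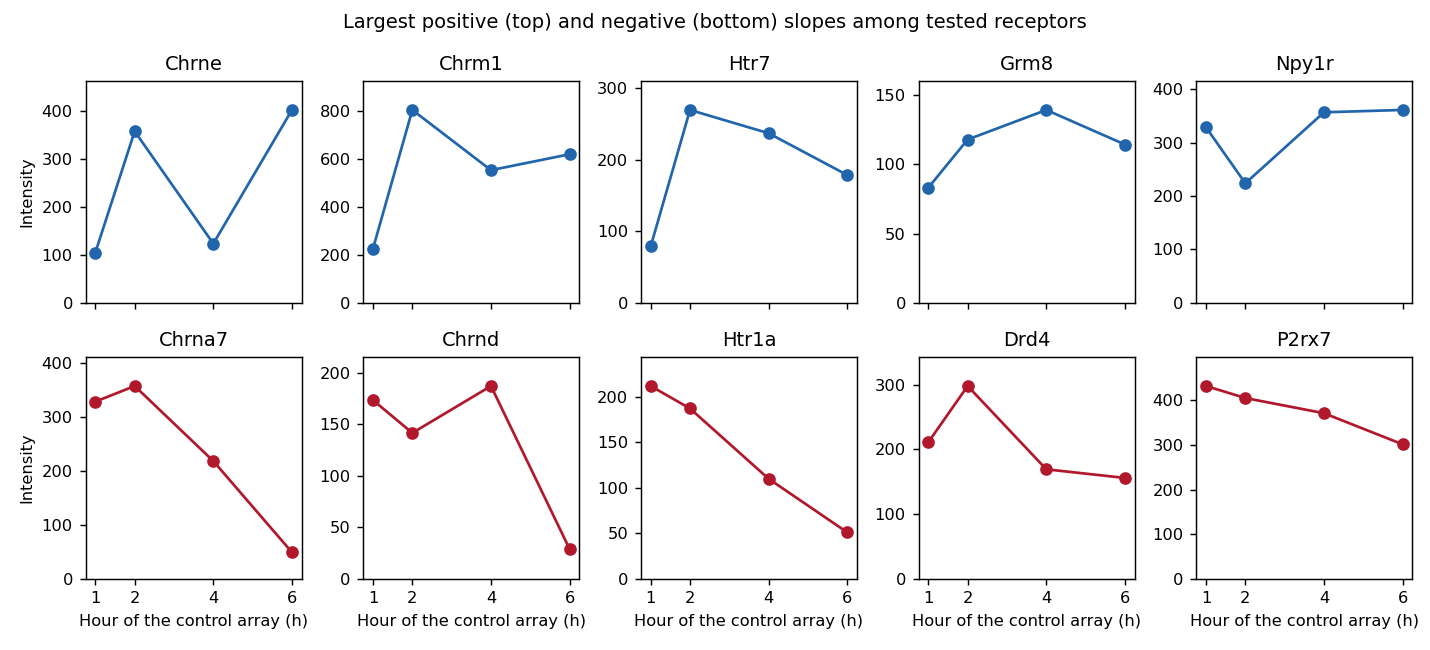
Intensity (linear axis from 0) by hour of the control array for the 5 largest positive slopes (top, blue) and the 5 largest negative slopes (bottom, red) among kept receptor probe sets. Htr1a and P2rx7 are lower in each later array, Chrnd is low at 6 h only (28.8), and Chrm1 and Htr7 are low at 1 h only (226 and 78.7).

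Promoter sequences are shown for receptors at opposite ends of this range: Htr1a and Chrna7, with the largest negative slopes that kept their sign without any 1 array, Htr7, low at 1 h, and Sstr4, the steadiest. They are from RefSeq (GRCm38.p6), the 250 bases before the gene's start, read 5′ to 3′ on the gene's strand. Htr1a lies at chr13:105443443-105443692 (+ strand), Chrna7 at chr7:63212527-63212776 (- strand), Htr7 at chr19:36057361-36057610 (- strand) and Sstr4 at chr2:148395127-148395376 (+ strand). Capitals mark a GC box.
Htr1a: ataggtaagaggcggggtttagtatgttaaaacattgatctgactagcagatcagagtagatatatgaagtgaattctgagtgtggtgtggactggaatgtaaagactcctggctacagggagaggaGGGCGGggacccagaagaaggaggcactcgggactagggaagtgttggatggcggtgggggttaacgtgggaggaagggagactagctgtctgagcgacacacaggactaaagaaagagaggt
Chrna7: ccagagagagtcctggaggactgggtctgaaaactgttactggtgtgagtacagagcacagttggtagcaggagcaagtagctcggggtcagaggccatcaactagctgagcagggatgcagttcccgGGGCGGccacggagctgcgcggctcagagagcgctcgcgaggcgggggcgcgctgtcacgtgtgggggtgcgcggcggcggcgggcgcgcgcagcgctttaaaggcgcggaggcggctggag
Htr7: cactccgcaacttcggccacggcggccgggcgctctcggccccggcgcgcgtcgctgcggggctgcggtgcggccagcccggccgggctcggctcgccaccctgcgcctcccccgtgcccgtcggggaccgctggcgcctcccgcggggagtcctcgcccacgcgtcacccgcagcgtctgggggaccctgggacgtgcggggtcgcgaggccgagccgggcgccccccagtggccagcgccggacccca
Sstr4: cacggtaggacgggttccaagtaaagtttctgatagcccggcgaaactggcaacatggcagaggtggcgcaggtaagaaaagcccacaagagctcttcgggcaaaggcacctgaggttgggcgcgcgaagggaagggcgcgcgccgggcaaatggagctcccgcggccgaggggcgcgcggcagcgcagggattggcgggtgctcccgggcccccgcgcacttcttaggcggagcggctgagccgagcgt

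The windows were searched on both strands for the GC box GGGCGG, the cyclic AMP response element TGACGTCA and the glucocorticoid receptor half-site AGAACA. Htr1a and Chrna7 each held 1 GC box and neither of the other motifs, and Htr7 and Sstr4 held none of the 3. The table matched 45 of the 57 receptor genes, with 60 start sites. A GC box stood in 40% of the receptor promoters and in 32.7% of all 32851, a cyclic AMP response element in 1 of 60 (that of Sstr2) and 1.55%, and a half-site in 13.3% and 16.1%. Promoters of receptor genes with a kept probe set (33 start sites of 23 genes) held a GC box in 48.5%, and those of the other receptor genes (27 of 22 genes) in 29.6%. The median ratio of observed to expected CpG was 0.51 in the former, 0.36 in the latter and 0.37 over all promoters. A GC content of 82% was found for Htr7, 67.2% for Chrna7 and Sstr4, and 50.4% for Htr1a. A match describes letters only, and start sites of 1 gene share sequence.

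How far each array stood from the other 3 was then counted, with no test, since each hour has 1 array. In the 1 h array 6 of 33 receptors (18.2%) lay at least 2-fold from the mean of the others, against 7.08% of all probe sets. Above it were Hrh2, Chrna7 and Htr1a (3 of 33, with 1.8% of all probe sets), and below it Chrm1, Htr7 and Chrne (3 of 33, with 5.29% of all). The difference was -1.53 on the log2 scale for Chrm1 and -1.52 for Htr7. The Gapdh ratio of 4.88 and the actin ratio of 2.51 belong to this array, and the part of RNA quality in these readings was not tested.

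The 2 h array had 3 such receptors, Chrna7 and Chrne above (1.81% of all probe sets) and Hrh2 below (1.58%), against 3.39% in either direction. Hrh2 stood farthest, at -1.91 on the log2 scale. The 4 h array also had 3, with Hrh2 and Chrnd above (1.42%) and Chrne below (1.4%), against 2.82%. After quantile normalization 1 was above and 1 below at 4 h. Leaving the 6 h array out left 1 at 4 h (4.05% of all probe sets), and leaving the 4 h array out gave 6 at 2 h (4.66%).

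The 6 h array had 5 (15.2%), against 2.76% of all probe sets. On the log2 scale the differences from the mean of the others were -2.59 for Chrna7, -2.53 for Chrnd, -1.68 for Htr1a and -1.06 for P2rx6. Chrne was higher by 1.27, where 0.912% of all probe sets lay at least 2-fold above. The share of all probe sets at least 2-fold lower in this array was 1.85%. The counts were also split by brightness. Of the 33 receptors, 20 lay between the 40th and the 60th percentile of mean log2 intensity, where 13.6%, 8.82%, 7.73% and 7.49% of all probe sets differed at 1, 2, 4 and 6 h. Each of the 5 at 6 h, and 5 of the 6 at 1 h, belonged to those 20. Among the 13 brighter receptors 1, Chrm1, differed at 1 h (3.82% of all probe sets of that brightness), and 0 at 2, 4 and 6 h (0.684%, 0.362% and 0.402%).

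**Figure D3:**
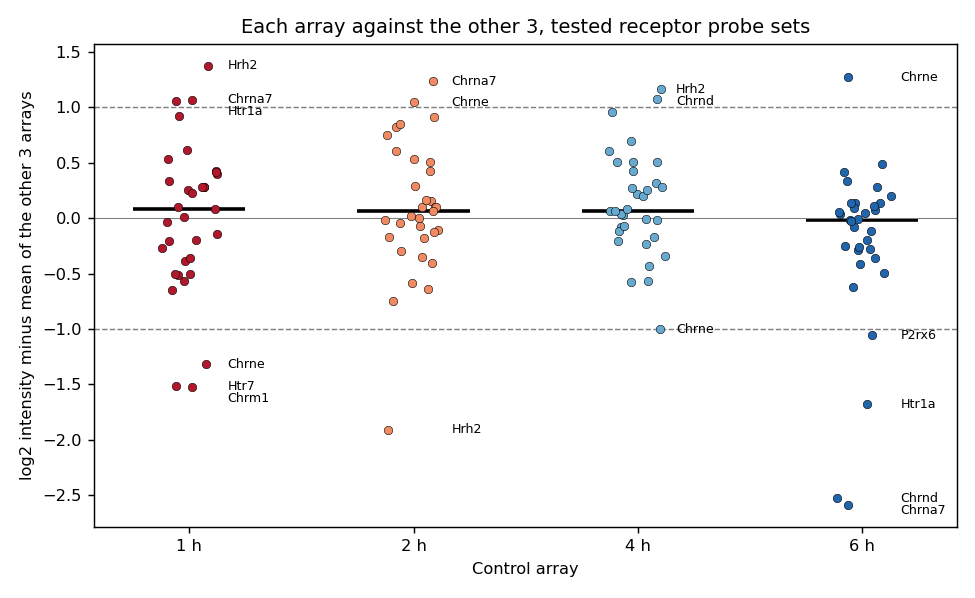
Difference in log2 intensity between each control array and the mean of the other 3, 1 point per kept receptor probe set (33 per array), with the median as a black bar and dashed lines at 2-fold. The medians are 0.09, 0.07, 0.07 and -0.02 at 1, 2, 4 and 6 h, and the named points lie past the dashed lines.

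Set against the 1 h array, which the next 3 comparisons share, 5 of 33 receptors differed at least 2-fold at 2 h (9.79% of all probe sets), 3 at 4 h (8.41%) and 7 at 6 h (9.34%). Htr7 and Chrm1 were higher than at 1 h in each later array, Chrne at 2 and 6 h, and P2rx6 at 4 h, which makes 3 receptors at each hour (6.35%, 5.68% and 5.69% of all probe sets at 2, 4 and 6 h). Npy2r (on the dimmer of its probe sets) and Hrh2 were lower at 2 h (3.45%), none at 4 h (2.74%), and Chrna7, Htr1a, Chrnd and Hrh2 at 6 h (3.65%). When each later array was set against the mean of the other later arrays instead, a reference chosen after the 1 h array was seen to stand apart, 3 receptors differed at 2 h (3.15% of all probe sets), 3 at 4 h (3.15%) and 4 at 6 h (2.72%).

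Over the 4 arrays, 11 of 33 receptors stayed within 1.5-fold from lowest to highest, as did 54% of all probe sets. A further 13 ranged from 1.5-fold to 2-fold (27.5% of all), and 9 ranged over 2-fold or more (18.5% of all). The 4 that ranged over at least 4-fold (3.3% of all) were Chrna7, Chrnd, Hrh2 and Htr1a. In the band between the 40th and the 60th percentile, 7 of 20 receptors and 39.3% of all probe sets ranged over at least 2-fold, a share near the background for this measure. In the same band 5 of 20 receptors stood at least 2-fold from the other arrays at 6 h, against 7.49%, and 5 of 20 at 1 h, against 13.6%. For the range from lowest to highest array, among the brighter 13 there were 2, Chrm1 and the dimmer Npy2r probe set, against 8.11%.

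Of the receptor genes, 6 have several probe sets. Both probe sets of Npy2r put the 1 h array highest and the 2 h array lowest. The kept probe set of Htr4 read 181 to 281, and the other pair of the same gene 3.5 to 16.8 and 33.1 to 83.6. For Chrne the 3 probe sets read 104.5 to 402, 30.1 to 181 and 12.3 to 26.3, and each was higher at 2 h than at 1 h, while the 6 h array was highest on the kept one and lowest on the dimmest. The probe sets of Chrng, which read 23.8 to 105, were also highest at 2 h. Npy1r was highest at 6 h on its kept probe set and lowest at 6 h on its other.

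**Figure D4:**
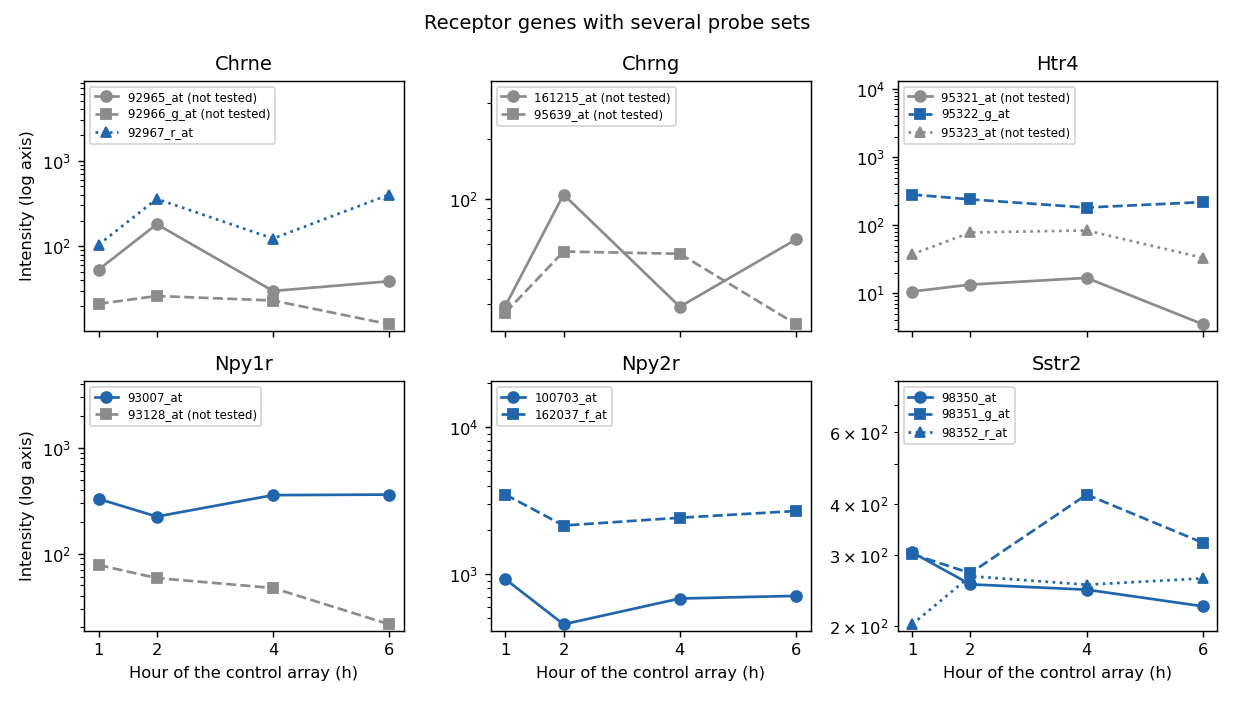
Intensity (log axis) by hour of the control array for the 6 receptor genes with several probe sets, blue for probe sets kept for tests and grey for those not kept. The Npy2r lines run in parallel, while those of Npy1r part at 6 h (361 and 21.4).

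Ligands, transmitter enzymes and signalling partners were read beside the receptors. Of 14 peptide precursor genes listed, 12 were found, and 13 of their 17 probe sets were kept. In this list 0 probe sets passed the trend in limma at an adjusted p under 0.05 in either direction, and slopes were positive in 4 and negative in 9, with a median slope of -0.02 against -0.01 over all probe sets. Sst, the ligand of the Sstr receptors, read 4021, 4023, 4013 and 4073, and Cck, the ligand of Cckbr, 11909, 14058, 13544 and 11068. The largest slopes were -0.22 for a dim probe set of Gal, the galanin precursor (91.7, 219.6, 114 and 56.2), and 0.17 for a probe set of Penk, the enkephalin precursor (147, 227, 225 and 304). Other probe sets of Gal and Penk had slopes of -0.03 and -0.07.

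Genes of transmitter synthesis, transport and breakdown gave 14 kept of 31 probe sets, with 7 slopes in each direction and 0 past the adjusted threshold in limma. Adk, which removes adenosine, read 1330, 1077, 1270.1 and 1295 on its bright probe set, and Ache, which breaks down acetylcholine, 548, 686, 763 and 697. The bright Adk probe set ends in _f_at, and the others of Adk, at 14.1 to 119.1 and 6.8 to 47.1, were not kept. Slc29a1, an adenosine transporter, read 100.4, 280.3, 322 and 436 on 1 probe set, while its second gave 222.5, 161, 194 and 133. Slc6a2, the noradrenaline transporter, read 340.5, 157, 93.3 and 119.5 on the probe set of larger slope, while its second gave 272, 147, 78.6 and 252. The slopes of the Slc29a1 probe sets had opposite signs, 0.36 and -0.11, though both were higher at 4 h than at 2 h, and those of Slc6a2 shared the order from 1 to 4 h and parted at 6 h.

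Of the receptor signalling and desensitisation list, 38 of 46 probe sets were kept, 18 with positive and 20 with negative slopes and 0 past the adjusted threshold in limma. Gnas, the stimulatory G protein alpha subunit, read 43440 at 1 h and 36621 to 38790 later on its brightest probe set. That probe set ends in _s_at and can share sequence with related transcripts. Gnao1, the most abundant inhibitory-class alpha subunit of brain, read 14262, 11421, 12387 and 12390 on its brightest and 47.6, 262, 169.7 and 243 on a dim one. Gnaz, an inhibitory alpha subunit, read 25.5 at 1 h and 325.5 to 439.6 later. The low 1 h reading of Gnaz and of the dim Gnao1 probe set was in the same array as that of Chrm1 and Htr7.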

How the data were processed

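Total RNA of 4 control samples was hybridised to single-channel arrays. The authors deposited intensity values on a linear scale, 1 row per probe set. The software behind them is not stated in the labels. The 2%-trimmed mean was 500.3 in each array, so values were used as deposited. Genes were named from the array annotation, updated through Entrez identifiers (GRCm38.p6 table, names only).

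In R 4.3.3, intensities under the 10th percentile were raised to it and log2 was taken. Probe sets at or above the 40th percentile of mean log2 were fitted on the hour with limma 3.58.1 (lmFit, eBayes with a trend), two-sided, with Benjamini-Hochberg adjustment over 7453 probe sets at 0.05. The fit was tested on simulated data. It missed nearly all of the smallest slopes put in, most of the middle ones and part of the largest, and made some false calls. Differences between arrays have no test and were counted at 2-fold. Precision is limited by the number of arrays. All kept receptors are named. Named beside them are the 2 brightest and the 2 of largest slope in each pathway list, and marker genes. The members and lists were chosen with earlier results of these data known.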

Additional observations from a re-analysis of the deposited data

Results flagged for a closer look

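Among 58 receptor probe sets with at most 1 array under the floor, 4 had 1 array that stood apart from the other 3 by Dixon's criterion on log2 intensity, where chance gives about 1 in 20. That is 6.9% of these receptors, against 884 of 10996 (8.04%) of all such non-control probe sets, a share near the background. Tacr2 read 166.2 at 4 h and 99.1 to 104.5 in the other arrays. Chrnd read 28.8 at 6 h against 141.4 to 186.9. Of the probe sets not kept for tests, Galr2 read 245 at 2 h against 56.9 to 63.4, and P2rx4 read 12.4 at 4 h, under the floor, against 67 to 87.1. The Gapdh 3' to 5' ratio stood apart at 1 h, at 4.88. The actin ratio did not stand apart, at 2.51 at 1 h against 1.83 to 2.20 later. The summed intensity of the oligodendrocyte markers stood apart at 2 h, at 20100, against 13032 to 13673. That is the array in which Galr2 was high, and the part of these cells in that reading was not tested.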

How the results depend on the processing

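The count of receptors past the trend threshold was 0 as reported and under all 12 alternatives, with a lowest adjusted p between 0.209 and 1.00 in limma. Slopes turned in sign when the 1 h array was left out for Chrm1, Htr7 and Grm8, and when the 6 h array was left out for Chrnd and Chrne. With any 1 array left out, the slope of Chrm1 ran from -0.094 to 0.33, that of Htr7 from -0.15 to 0.44, Grm8 from -0.011 to 0.23, Chrnd from -0.57 to 0.060 and Chrne from -0.042 to 0.36. The other named slopes, of Chrna7, Htr1a, Drd4, P2rx7 and Npy1r, kept their sign under each alternative run. For Htr1a and P2rx7, lower in each later array, leaving 1 array out could not turn the sign. At an unadjusted p under 0.05 in limma the 3 receptors (4.4% of all probe sets) became 7 with no filter (5.59%), 5 without the 2 h array (13.4%), and 0 with the filter at the 60th percentile (4.13%) or without the 6 h array (3.09%). The counts at least 2-fold from the other arrays, 6, 3, 3 and 5 at 1, 2, 4 and 6 h, were 14, 11, 11 and 11 of 66 with no filter (16.4%, 11.7%, 12.1% and 10.6% of all probe sets) and 1, 0, 0 and 0 of 13 with the filter at the 60th percentile (3.82%, 0.684%, 0.362% and 0.402%). At 1.5-fold they were 11 at 2 h (12.5%) and 6 at 4 h (10.2%), and with a pseudocount of 16 in place of the floor 1 at 4 h (2%). With 1 other array left out they ran from 4 to 7 at 1 h, 3 to 6 at 2 h, 1 to 3 at 4 h and 4 to 5 at 6 h. Against 1 h, the counts of 5, 3 and 7 at 2, 4 and 6 h were 17, 13 and 17 with no filter (20.1%, 19.5% and 19.8%), 2, 1 and 1 at the 60th percentile (5.01%, 4.11% and 4.65%), and 11 and 12 at 2 and 4 h at 1.5-fold (25.5% and 24%). Against the other later arrays they were 3 at 2 h (3.15%) and 4 at 6 h (2.72%). The filters change how many receptors are counted, and the cause of the other shifts was not tested. Both scalings gave counts within 1.5 times of those reported. No paired analysis was possible because each hour has 1 array.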
